A study of Mus musculus with 29 samples.

Results

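The macrophage state markers are 10 genes of the 24421 in the count table, found by their symbols: Cd68, Adgre1, Mrc1, Cd163, Spp1, Trem2, Marco, Timd4, Gpnmb and Lyve1. They were described in all 29 RNA-seq libraries, 1 per mouse, of a peritoneal dissemination model of gastric cancer (GC). Female C57BL/6J mice aged 5 to 6 weeks received YTN16 mouse gastric cancer cells by intraperitoneal (IP) injection, and RNA was taken from the stripped peritoneum, with or without tumor nodules. On day 21 (3wk) there were 5 untreated mice, given PBS, and 5 mice given dual immune checkpoint inhibitor (ICI) treatment, which is anti-PD1 at 10 mg/kg together with anti-CTLA4 at 5 mg/kg. On day 35 (5wk) there were 5 untreated mice, 5 given anti-PD1 alone, 4 given anti-CTLA4 alone, 2 dual ICI-uncured mice (replicates 1 and 5) and 3 dual ICI-cured mice (replicates 2, 3 and 4). All groups carried the implanted YTN16 cells, so no library came from a peritoneum that had never held tumor. The deposited counts summed to between 25989217 and 31219650 per library.

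Macrophages are phagocytes that either settle in a tissue before birth or arise from blood monocytes, and the genes they express change with their origin and surroundings. Cd68 encodes a lysosomal membrane protein and Adgre1 the surface receptor F4/80, and both mark mouse macrophages in general. Mrc1 (the mannose receptor CD206), Cd163 (the receptor for hemoglobin bound to haptoglobin) and Marco (a receptor for bacteria and particles) are scavenger receptors. Trem2 is a lipid-sensing receptor, Spp1 encodes the secreted protein osteopontin and Gpnmb a glycoprotein of lipid-laden macrophages, and the genes are often read together in tumor-associated macrophages. Timd4 is a phosphatidylserine receptor for the uptake of dying cells, and with Lyve1, a hyaluronan receptor, it marks resident macrophages of serous cavities and vessels. Spp1 is also made by many epithelial tumors, and Lyve1 also marks lymphatic endothelium, so in whole tissue neither is particular to macrophages. In bulk RNA, fewer macrophages and less RNA per macrophage cannot be told apart.

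The outcome of the dual ICI mice at 5wk was not in the labels. It was taken from the mouse numbers given in the study, read as the replicate numbers of the libraries, and a comparison of all 5 dual ICI mice with the untreated mice is therefore given as well. Library 5 of the anti-PD1 group stood apart from the other 4. The summed level of the gastric epithelium list, which carries the tumor cell markers, was 61.9 CPM (counts scaled to library size) in it and 2883 to 3754 in the others. The study states that a mouse under anti-PD1 was cured, without tying it to a library. No library was assigned this outcome, and library 5 was kept under its label. The fold changes of the markers under anti-PD1 are given with and without library 5. Library 2 of the untreated group at 5wk was lower than the other 4 in the same sum (1152 against 2899 to 3917 CPM) and higher in the skeletal muscle list (272600 against 52600 to 151900 CPM). The libraries of 3wk and of 5wk carry different ranges of identifier numbers, whose meaning is not given in the sources used here, and time and whatever they mark cannot be told apart.

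The macrophage signal was described with 16 further macrophage identity genes. None of the 16 was at 0 in every library of a group. Detection at this depth does not tell which cells the 10 markers came from. Their summed level had its lowest value in library 2 of the untreated mice at 5wk (946.6 CPM) and its highest in a dual ICI mouse at 3wk (3651 CPM). Lyz2, the lysozyme gene of myeloid cells, was the most abundant, at a mean of 686 CPM over the 29 libraries. All 10 state markers were also detected in every library and passed the filter on low counts in every comparison. Marco was the least well measured, with 2 to 305 counts per library.

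Per length of transcript, Spp1 was the most abundant of the markers, at a mean of 211 RPKM (counts scaled to library size and transcript length) over all libraries. Cd68 (35.8 RPKM) and Mrc1 (33.3 RPKM) followed, then Cd163 (21.9 RPKM) and Adgre1 (21.8 RPKM). Lyve1 (16.0 RPKM), Trem2 (15.5 RPKM) and Gpnmb (12.8 RPKM) were lower, and Timd4 (2.03 RPKM) and Marco (0.907 RPKM) were at the bottom. This order did not hold in dual ICI-cured mice, where the mean of Spp1 was 7.12 RPKM. There it lay below Mrc1 (23.2), Cd68 (20.7), Lyve1 (20.1), Cd163 (17.7), Adgre1 (14.2) and Gpnmb (7.72 RPKM). In every other group Spp1 had the highest mean of the markers.

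The groups were ordered by their mean CPM for each gene. Cd68, Adgre1, Mrc1, Cd163 and Timd4 had their highest mean in dual ICI mice at 3wk, at 66.0 ± 17.6, 126.9 ± 37.5, 277.7 ± 63.1, 136.6 ± 42.4 and 7.49 ± 3.44 CPM (SD, n = 5). Spp1 (499.2 ± 260.0 CPM), Marco (3.28 ± 3.47 CPM) and Gpnmb (63.5 ± 38.3 CPM) were highest in untreated mice at 5wk (SD, n = 5), and Trem2 in dual ICI-uncured mice (26.6 ± 5.70 CPM, SD, n = 2). Lyve1 was highest in dual ICI-cured mice (58.1 ± 15.2 CPM, SD, n = 3). The lowest mean of Cd68, Adgre1, Spp1, Trem2 and Gpnmb was in dual ICI-cured mice. Neighbouring groups in these orders overlapped in their library values, apart from 3 steps. These were the step from dual ICI mice at 3wk down to cured mice for Spp1, from untreated mice at 3wk down to cured mice for Trem2, and from uncured mice down to dual ICI mice at 3wk for Gpnmb. Of all 16700 genes, 26.3%, 29.3% and 18.8% lay lower without overlap in the same 3 steps.

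**Figure D1:**
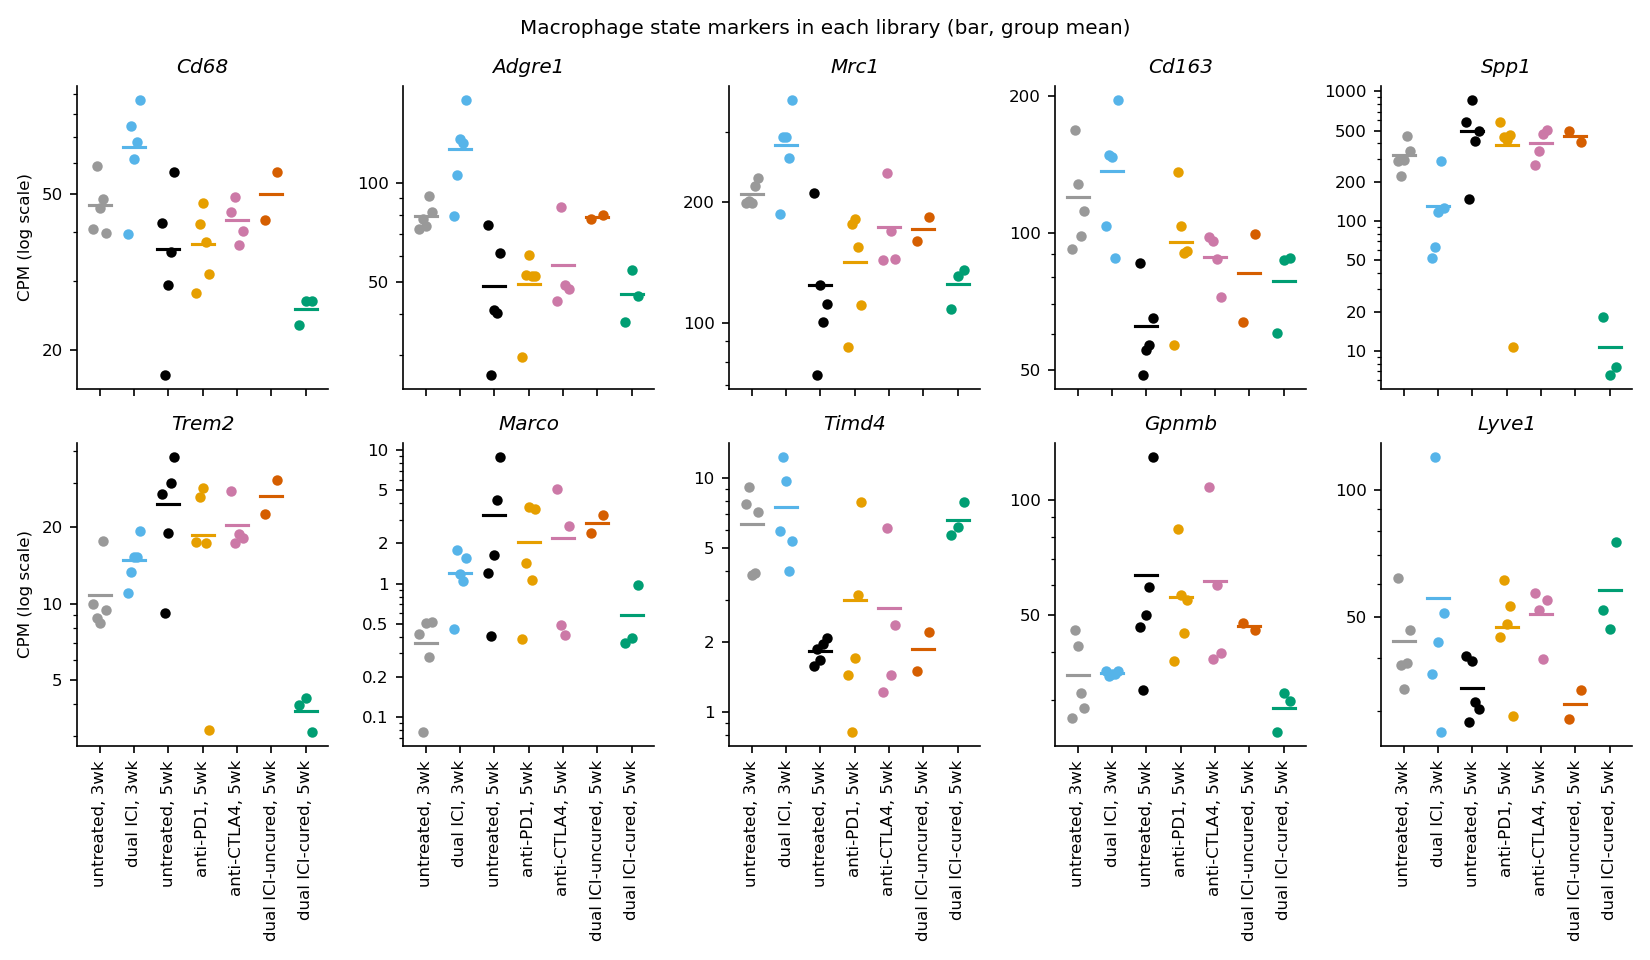
CPM (log scale) of each of the 10 macrophage state markers in the 29 libraries, by group; each point is 1 mouse and the bar is the group mean. Spp1 and Trem2 are low in the 3 dual ICI-cured mice and in library 5 of the anti-PD1 group, where Spp1 was 10.7 CPM, while Timd4 lies between 1.57 and 2.08 CPM in the 5 untreated mice at 5wk.

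To see the markers before the tumor had cleared in any group, dual ICI mice were compared with untreated mice at 3wk. Of the 15503 genes tested, 89 (0.574%) passed an adjusted p under 0.05, and none of the 10 markers did. Leaving out 1 library gave 6 to 119 genes, and total counts as library sizes gave 14 higher and 1 lower. The markers with the smallest unadjusted p were Marco, Adgre1 and Spp1, and Spp1 was the only one of the 10 whose mean was lower in dual ICI mice. In the 5 untreated mice Spp1 was 290.7, 221.7, 294.4, 456.3 and 350.6 CPM, and in the 5 dual ICI mice it was 51.8, 63.2, 117.7, 290.7 and 126.7 CPM. Library 4 of the dual ICI mice lay within the untreated range, and the other 4 lay below it. The log2 fold change of Spp1 was -1.30 (SE 0.42, adjusted p = 0.255).

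The general marker Adgre1 was 72.8, 78.0, 73.8, 91.2 and 81.9 CPM in untreated mice and 79.3, 106.3, 136.5, 132.7 and 179.8 CPM in dual ICI mice at 3wk. All but library 1 of the dual ICI mice lay above every untreated mouse. Its log2 fold change was 0.68 (SE 0.19, adjusted p = 0.169). Marco differed by 1.74 on the log2 scale (SE 0.45, adjusted p = 0.139), from 2 to 14 counts in untreated and 11 to 49 counts in dual ICI libraries. Cd68 (log2 fold change 0.50, adjusted p = 0.365) and Mrc1 (0.41, adjusted p = 0.389) also had an unadjusted p under 0.05. In all, 4 markers were higher and 1 lower at that level, against 6.02% and 4.67% of all genes tested, and the median log2 fold change of the 10 markers was 0.37 against 0.02 for all genes. Trem2 (0.47), Lyve1 (0.33), Timd4 (0.23), Cd163 (0.19) and Gpnmb (0.02) were not at that level, and Gpnmb was nearly level among the 5 dual ICI mice, at 35.2 ± 0.48 CPM (SD, n = 5).

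DESeq2, run as an alternative, called 502 genes in this comparison and 3 of the markers, Marco (adjusted p = 0.0105), Adgre1 (adjusted p = 0.0342) and Spp1 (adjusted p = 0.0498). With edgeR, Adgre1 passed without library 1 of the dual ICI mice (adjusted p = 0.0406) and Spp1 without library 4 (adjusted p = 0.0375). A replicate block, described in the last section, also called Spp1.

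Each marker was also read as its log2 ratio to Adgre1 within a library. It is a description with no test, since Adgre1 was taken as the denominator after the values were seen. The ratios printed are of plain CPM values, and 0.5 was added to both values only where overlap was judged. The ratio of Spp1 to Adgre1 was 1.51 to 2.32 in untreated mice and -0.75 to 1.13 in dual ICI mice at 3wk. The groups did not overlap, which was so in this direction for 16.8% of all genes. The ratios of the other 8 markers overlapped.

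The neighbouring macrophage genes at 3wk were read from lists of known genes. Of 16 macrophage identity genes, 1 rose and none fell (median log2 fold change 0.55). It was Aif1, which encodes the actin-binding protein IBA1 (log2 fold change 1.18, adjusted p = 0.0176). Of 13 genes of classical activation, 2 rose and none fell (median 0.87). They were Irg1, whose enzyme makes itaconate in activated macrophages (2.87, adjusted p = 0.026), and Slamf8, a surface receptor of myeloid cells (1.57, adjusted p = 0.00681). No gene passed among 16 of the Trem2 lipid-handling programme (median 0.21), where the adaptor Tyrobp had the smallest p (0.63, adjusted p = 0.0973). Likewise none passed among 18 of the scavenger and alternatively activated list (median 0.43). Its smallest p was that of Msr1, a scavenger receptor for modified lipoproteins (1.05, adjusted p = 0.162). None of 12 peritoneal cavity macrophage genes passed (median -0.07, with Prg4 at a log2 fold change of -0.45). The same held for 7 osteopontin receptor genes (median -0.05, with the integrin gene Itga4 at 0.55). At an unadjusted p under 0.05, 10 of 16 identity, 8 of 13 classical activation and 6 of 18 scavenger genes were higher and none lower. In the Trem2, peritoneal cavity and osteopontin receptor lists 3, 3 and 1 genes were higher and 0, 2 and 0 lower. Of all genes, 6.02% were higher and 4.67% lower at that level.

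Other cells moved with these values. Of 7 T cell genes, 2 rose, Cd8a (2.31) and Cd3g (1.82), and the summed T cell level was 12.4 to 22.5 CPM in untreated and 35.8 to 67.2 CPM in dual ICI mice at 3wk, with Cd8a the most abundant T cell gene over all libraries (5.26 CPM). No gene of the gastric epithelium list passed, and its sum was 839 to 2479 CPM in untreated and 928 to 2741 CPM in dual ICI mice. In the dual ICI mice, the 3 highest sums of that list went with the 3 highest Spp1 levels, and this is drawn in the plot of marker levels against gastric epithelium. Of 8 adipocyte genes none passed and none lay above 0 (median -0.80), and 5 had an unadjusted p under 0.05. Their sum was 706.5 to 1406 CPM in untreated and 242 to 957 CPM in dual ICI mice, with Cfd the most abundant over all libraries (473 CPM). Of 5 monocyte genes none passed and all lay above 0 (median 0.66), and 3 had an unadjusted p under 0.05. Their sum was 192 to 288 CPM in untreated and 206.5 to 486 CPM in dual ICI mice, with Plac8 the most abundant (186 CPM). Of 8 dendritic cell genes none passed, 4 were higher and 1 lower at an unadjusted p under 0.05 (median 0.44), and their sum was 44.3 to 52.5 CPM in untreated and 52.0 to 92.8 CPM in dual ICI mice, with Itgax the most abundant (21.1 CPM). The part of these cell types in the marker values was not tested.

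In untreated mice the markers were compared between 5wk and 3wk, to see how they changed while the tumor grew without treatment. Trem2 and Marco rose, and Timd4 and Cd163 fell, where 10.8% of all genes were called, 6.24% higher and 4.58% lower. Timd4 was 7.76, 9.17, 3.85, 3.91 and 7.15 CPM at 3wk and 1.57, 1.87, 1.67, 1.95 and 2.08 CPM at 5wk. Every mouse at 5wk lay below every mouse at 3wk, and the SD of the 5 late values was 0.208 CPM. The log2 fold change was -1.80 (SE 0.28, adjusted p = 0.0062).

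Cd163 was 92.4, 168.1, 127.8, 98.7 and 111.7 CPM at 3wk and 86.0, 48.8, 55.5, 56.7 and 65.1 CPM at 5wk. These groups did not overlap either, which in the lower direction was so for 5.18% of all genes, and Cd163 fell by 0.95 on the log2 scale (SE 0.20, adjusted p = 0.0156). With total counts as library sizes its adjusted p was 0.0623. Trem2 was 8.34 to 17.6 CPM at 3wk and 27.0, 9.22, 18.9, 29.8 and 37.9 CPM at 5wk, so that only library 2 at 5wk lay within the early range. It rose by 1.18 on the log2 scale (SE 0.33, adjusted p = 0.0441), and Marco by 3.17 (SE 0.77, adjusted p = 0.0272). On total counts Trem2 was not called (1.29, adjusted p = 0.0724). Leaving out library 1, 2, 3 or 5 of the mice at 3wk ended both calls, as did library 4 or 5 of the mice at 5wk, and library 1 or 3 at 5wk ended that of Trem2 (adjusted p 0.0544 to 0.1045 for Trem2 and 0.0544 to 0.0644 for Marco).

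The other 6 markers did not pass. Mrc1 (log2 fold change -0.77, adjusted p = 0.0525) and Adgre1 (-0.71, adjusted p = 0.066) were closest, and both passed without library 1 or library 2 of the mice at 5wk. Spp1 (0.62, adjusted p = 0.27) and Gpnmb (0.87, adjusted p = 0.106) passed without library 2 at 5wk (adjusted p = 0.0228 and 0.0255). Cd68 (-0.37) and Lyve1 (-0.38) had adjusted p of 0.344 and 0.166.

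The scavenger and alternatively activated list held the most called genes of the macrophage lists with time, with 6 of 18 lower and none higher (median -0.34 against 0.02 for all genes), where 4.58% of all genes were lower and 6.24% higher. Retnla, an effector of alternative activation (log2 fold change -2.29), and the lectin gene Cd209f (-1.32) fell most, and the others were Folr2, F13a1, Mgl2 and Igf1. Of 7 osteopontin receptor genes 3 fell, Itgb3 (-0.92), Itga4 (-0.83) and Itga9 (-0.43), and of 16 Trem2 programme genes 1 rose, the tetraspanin gene Cd63 (0.86, adjusted p = 0.0143). One of 12 peritoneal cavity genes fell (Ltbp1, -0.49). None of 16 identity genes passed (median -0.08, 7 above 0), with the smallest p for Csf2ra (-0.74, adjusted p = 0.0542). None of 13 classical activation genes passed either (median -0.30, 6 above 0), and Tnf, the gene with the smallest p, lay at 0.71 against that median. Among other cell types, 2 of 9 gastric epithelium genes rose (Tff2, 3.32, and Muc1, 1.20), 2 of 5 neutrophil genes rose (S100a8, 2.08, and S100a9, 1.53), 1 of 5 monocyte genes fell (Ccr2, -1.01) and 5 of 7 fibroblast genes fell. Of the other lists, 1 of 8 dendritic cell, 1 of 8 adipocyte, 1 of 18 skeletal muscle and 1 of 6 vascular endothelium genes fell. No gene rose in them. The part of all these cell types in the marker values was not tested.

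The comparison of dual ICI-cured with untreated mice at 5wk asks what the markers looked like after the tumor had gone. Spp1, Trem2 and Gpnmb fell, Timd4 and Lyve1 rose, and the general markers Cd68 and Adgre1 did not pass. These 5 stood in a comparison that called 7067 of 15816 genes (44.7%), 18% higher and 26.7% lower, so a share of 5 in 10 is near that of all genes. The 5 did not overlap between the groups, which was so for 20.9% of all genes in the higher direction and 26.4% in the lower.

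Spp1 was 578.7, 147.3, 863.2, 411.7 and 495.1 CPM in untreated and 18.2, 6.55 and 7.46 CPM in cured mice. The gap between the highest cured and the lowest untreated mouse was wide, and Spp1 fell by 5.53 on the log2 scale (SE 0.67, adjusted p = 0.000298), the steepest change of the 10 markers in this comparison. Trem2 was 27.0, 9.22, 18.9, 29.8 and 37.9 CPM in untreated and 3.97, 4.23 and 3.12 CPM in cured mice. Its lowest untreated value was library 2, the one low in epithelium, and it fell by 2.69 (SE 0.42, adjusted p = 0.0011). Gpnmb was 46.6, 31.9, 50.0, 59.2 and 129.8 CPM against 24.7, 31.2 and 29.8 CPM. The groups lay close at library 2 of the untreated mice, and Gpnmb fell by 1.14 (SE 0.40, adjusted p = 0.0432); leaving out any cured mouse, or untreated library 3 or 4, ended this call (adjusted p 0.0531 to 0.132), as did the replicate block (-0.68, adjusted p = 0.0591).

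Timd4 was 5.72, 6.15 and 7.90 CPM in cured mice, against the 1.57 to 2.08 CPM given above for untreated mice at 5wk. All cured mice lay above all untreated mice of that day and within the range of the mice at 3wk, and Timd4 rose by 1.86 (SE 0.21, adjusted p = 0.000241). The same untreated mice at 5wk gave its fall with time, so the rise and the fall are not independent. Lyve1 was 51.9, 46.9 and 75.4 CPM in cured and 40.4, 28.3, 39.3, 31.6 and 30.3 CPM in untreated mice. It rose by 0.78 (SE 0.19, adjusted p = 0.00897) and was also called with upper-quartile normalization (0.74, adjusted p = 0.0135) and DESeq2 (0.80, adjusted p = 0.00205). The TMM factors of the cured libraries were 0.693 to 0.7225, and with plain total counts as library sizes, a setting added after seeing the data, the log2 fold change of Lyve1 was 0.18 (adjusted p = 0.601). Its call was also lost without cured library 4 (0.55, adjusted p = 0.0548). On total counts the median of all genes was -0.64, against -0.05 with TMM, 1187 genes were called higher and 7386 lower (TMM, 2848 and 4219), and Timd4 still rose by 1.28 (adjusted p = 0.00364) while Spp1 and Trem2 fell by 6.21 and 3.33. Cd68 then fell by 1.14 (adjusted p = 0.0396) and Marco by 3.13 (adjusted p = 0.0241), so that 6 markers were called.

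The markers that did not pass with TMM were Marco (log2 fold change -2.49, SE 0.95, adjusted p = 0.0575), Cd68 (-0.49, SE 0.31, adjusted p = 0.218), Cd163 (0.35, adjusted p = 0.193), Adgre1 (-0.07, adjusted p = 0.859) and Mrc1 (0.02, adjusted p = 0.958). Cd68 (adjusted p = 0.0256) and Marco (adjusted p = 0.0147) passed without untreated library 2, and Marco passed with DESeq2 (adjusted p = 0.00691). Cd163 and Mrc1 changed sign on total counts (-0.27 and -0.62). As log2 ratios to Adgre1, Spp1 was -3.06 to -1.06 in cured and 2.50 to 4.40 in untreated mice, and Trem2 was -3.86 to -3.25 against -1.50 to -0.44. The ratio of Timd4 was -3.14 to -2.52 against -5.57 to -3.80. None of the 3 ratios overlapped, which held for 17.5% of all genes in the lower direction and for 1.77% in the higher, and the ratios of the other 6 markers overlapped.

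**Figure D2:**
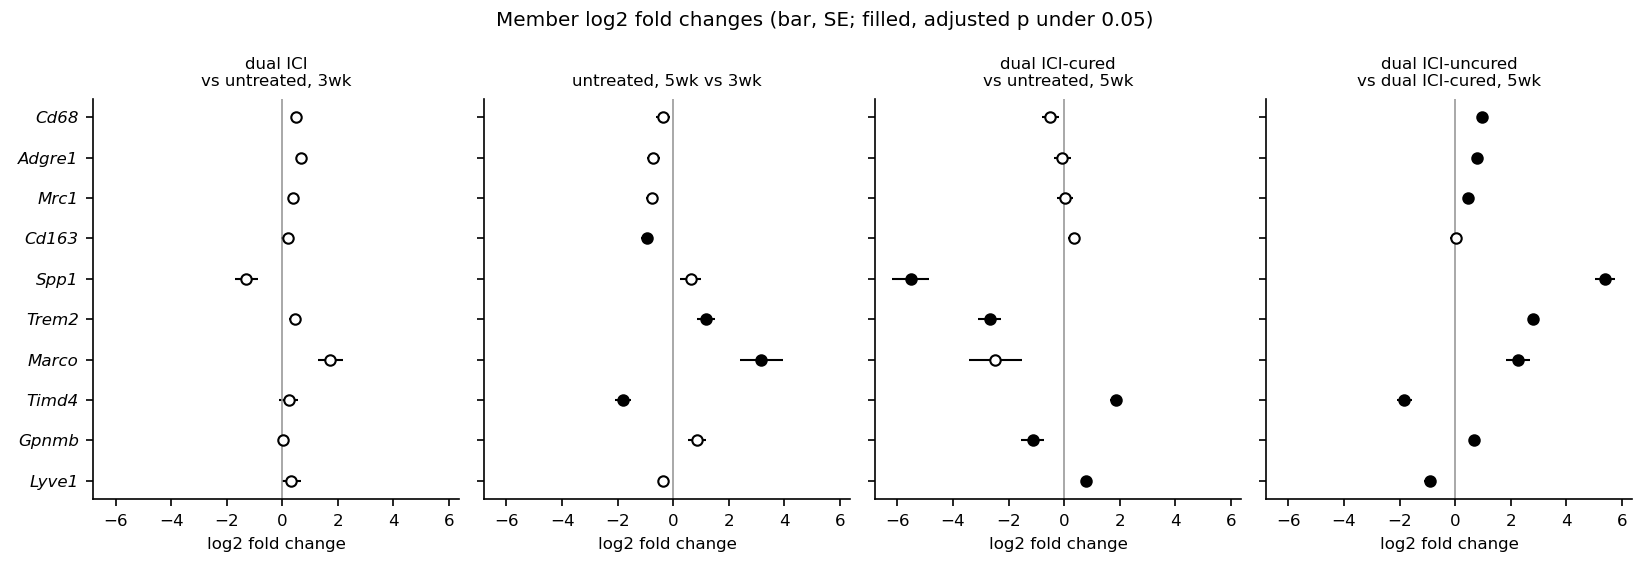
Log2 fold change (x axis) of each marker in 4 comparisons, with its SE as a bar; filled points had an adjusted p under 0.05 (edgeR). No point is filled at 3wk, and the Spp1 point lies at -5.53 in cured against untreated mice and at 5.39 in uncured against cured mice.

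The promoters of the steepest marker of the fall, of Trem2, which went with it, and of Timd4, which went the other way, are shown so that their sequence can be set beside these values. Spp1 lies on chromosome 5 (chr5:104435118-104441050, plus strand), Trem2 on chromosome 17 (chr17:48346401-48354147, plus strand) and Timd4 on chromosome 11 (chr11:46810800-46844332, plus strand) of GRCm38 in GENCODE vM21. Each sequence is the 250 bases before the RefSeq transcription start, on the gene's strand, from RefSeq on GRCm38.p6, and covers chr5:104434861-104435110, chr17:48346151-48346400 and chr11:46810549-46810798. Capitals mark matches to short motifs of factors known in macrophages: GAGGAA for PU.1, TGANTCA for AP-1, CACGTG for the E-box of the MiT family and AGATAA for GATA factors, each on both strands.
Spp1: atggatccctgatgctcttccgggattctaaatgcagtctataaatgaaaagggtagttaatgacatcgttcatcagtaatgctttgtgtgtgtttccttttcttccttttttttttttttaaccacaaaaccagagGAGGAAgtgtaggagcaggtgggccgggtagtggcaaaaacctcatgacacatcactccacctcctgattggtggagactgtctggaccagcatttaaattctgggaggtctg
Trem2: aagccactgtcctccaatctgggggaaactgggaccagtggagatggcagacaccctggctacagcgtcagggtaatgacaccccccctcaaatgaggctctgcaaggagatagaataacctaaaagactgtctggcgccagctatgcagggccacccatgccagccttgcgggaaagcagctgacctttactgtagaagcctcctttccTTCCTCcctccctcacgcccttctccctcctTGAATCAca
Timd4: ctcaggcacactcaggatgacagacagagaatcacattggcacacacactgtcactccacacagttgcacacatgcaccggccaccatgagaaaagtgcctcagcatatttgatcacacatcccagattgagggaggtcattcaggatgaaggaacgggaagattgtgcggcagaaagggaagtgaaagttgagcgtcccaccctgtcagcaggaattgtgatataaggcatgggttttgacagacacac
Spp1 held GAGGAA at position -113 from the start. Trem2 held the reverse complement of the same motif, TTCCTC, at -40 and TGAATCA at -9. Timd4 held none of the 4. In the same window GAGGAA was found in 23.3% of 32851 promoters, TGANTCA in 6.75%, CACGTG in 6.02% and AGATAA in 9.99%. RefSeq entries were found for 8 markers, and among the other 5 the PU.1 letters occurred in Cd68 (1 match), Mrc1 (3) and Marco (1), AP-1 letters in Cd68 (2), and none in Cd163 and Gpnmb. A match describes letters only.

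The macrophage lists in cured mice are read beside the 26.7% of all genes that fell and the 18% that rose. Of 13 classical activation genes 8 fell and none rose (median -1.99), led by the cytokine gene Il1b (log2 fold change -4.24) and Irg1 (-4.02). Of 16 identity genes 4 fell and none rose (median -0.52): Cx3cr1, the fractalkine receptor (-4.58), Cd14, the co-receptor for lipopolysaccharide (-2.50), Tlr2 (-1.53) and Aif1 (-1.37). The Trem2 lipid-handling programme held 7 genes that fell, led by the elastase gene Mmp12 (-3.07) and the galectin gene Lgals3 (-1.87), and 2 that rose (median -0.74). The 2 were Lpl (1.55) and Cd36 (1.01), genes of fatty acid uptake that adipocytes also express, and they were named after their values were seen, as were Tlr2 and Aif1.

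The scavenger and alternatively activated list was split, with 6 of 18 genes higher and 7 lower (median -0.15 against -0.05 for all genes). Il10, the gene of an inhibitory cytokine, changed most (-4.07), while Retnla (2.55), Cd209f (1.67), Mgl2 (1.24), Folr2 (1.19), F13a1 (0.85) and Igf1 (0.64) rose. Of 12 peritoneal cavity macrophage genes 4 rose, Alox15 (2.04), Serpinb2 (1.86), F5 (1.22) and Tgfb2 (0.83), with a list median of 0.32. Another 2 fell, Naip1 (-6.32) and Gata6, a transcription factor of large peritoneal macrophages (-2.23). In the same comparison the gastric epithelium and mesothelium lists had medians of -6.58 and -1.77. The part of those cells in the 2 falls was not tested. Of the osteopontin receptor genes, Cd44 fell (-2.58) and Itgb3 rose (0.51).

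**Figure D3:**
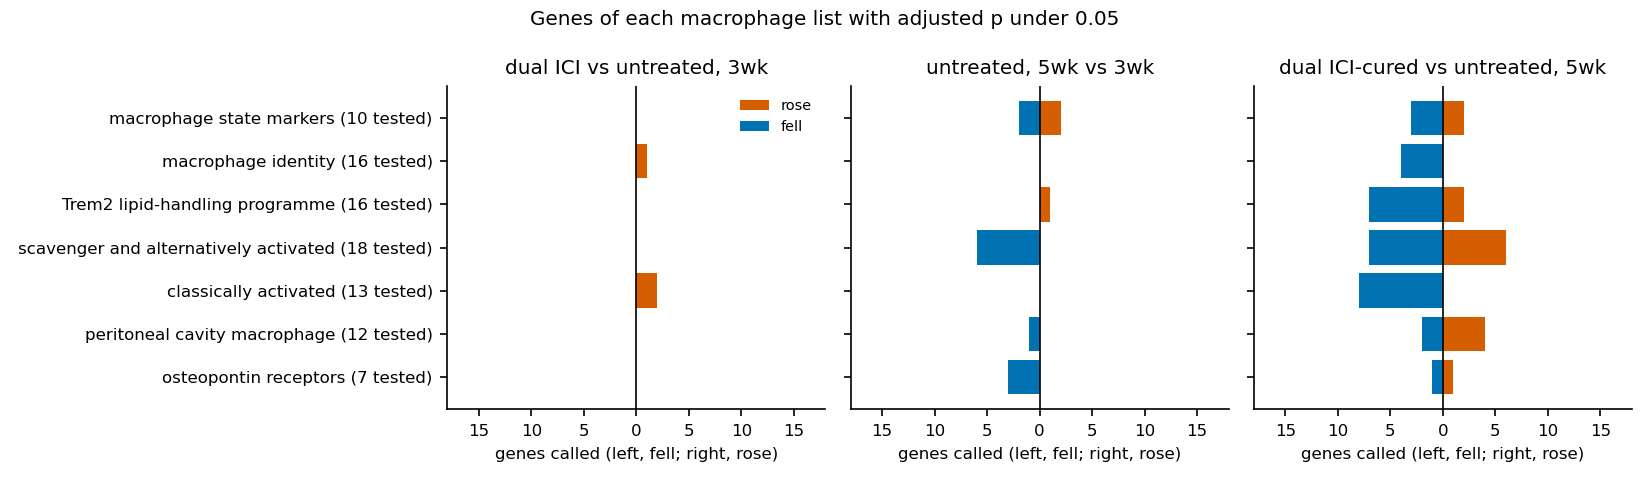
Number of genes (x axis, left lower, right higher) of each macrophage list with an adjusted p under 0.05 in 3 comparisons; the number tested stands beside each list. The bars are short at 3wk, the scavenger list has only lower genes in untreated mice from 3wk to 5wk, and in cured mice it has 6 higher and 7 lower genes.

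Tissue composition differed with these results. All 9 tested genes of the gastric epithelium list fell in cured mice (Tff2, -9.41, and Cldn18, -8.03, most), the list summed to 95.6, 40.5 and 18.4 CPM in cured and to 3153, 1152, 3126, 3917 and 2899 CPM in untreated mice, and Gkn1, Gkn2, Muc5ac and Tff1 were at 0 in every cured library. Its most abundant gene over all libraries was Krt8 (741 CPM). Skeletal muscle genes held 22.9% to 24.6% of all counts in cured and 6.21% to 21.6% in untreated mice, with 6 of 18 genes higher and Myh4 the most abundant (28640 CPM). The part of these differences in the marker values was not tested.

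The lists of other cells were read as well. Their counts, and those of the epithelium, muscle and lymphatic lists, stand beside 26.7% of all genes lower and 18% higher. All 5 tested neutrophil genes fell (S100a8, -5.22, S100a9, -4.42). The list summed to 7.11, 7.28 and 9.27 CPM in cured and 28.9 to 93.4 CPM in untreated mice. Mpo was at 0 in every cured library, and Csf3r was the most abundant of the list over all 29 libraries (26.0 CPM). Of 5 monocyte genes 1 fell, Plac8 (-3.60), which was also the most abundant over all 29 libraries (186 CPM). The monocyte sums were 68.9, 63.9 and 62.7 CPM in cured against 129.9 to 354.0 CPM in untreated mice. Of 7 T cell genes 5 fell (Cd5, -1.58, Cd3d, -1.57), and of 6 mesothelium genes 4 fell. Of 8 dendritic cell genes 3 fell and 1 rose, while 1 of 8 adipocyte, 2 of 7 fibroblast and 2 of 6 vascular endothelium genes rose and none fell.

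Since Lyve1 is also a lymphatic endothelial gene, that list was read beside it. Its sum was 84.7, 93.0 and 97.6 CPM in cured and 100.9 to 126.7 CPM in untreated mice, so that the cured range lay below the untreated one, and Ccl21a was at 0 in both groups. Of 6 tested genes Nts (-2.18), Pdpn (-0.82) and Mmrn1 (-0.66) fell and Reln (0.74) rose, while Prox1 and Flt4 were not called. Pdpn was the most abundant (49.9 CPM). The part of lymphatic endothelium in the Lyve1 values was not tested.

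**Figure D4:**
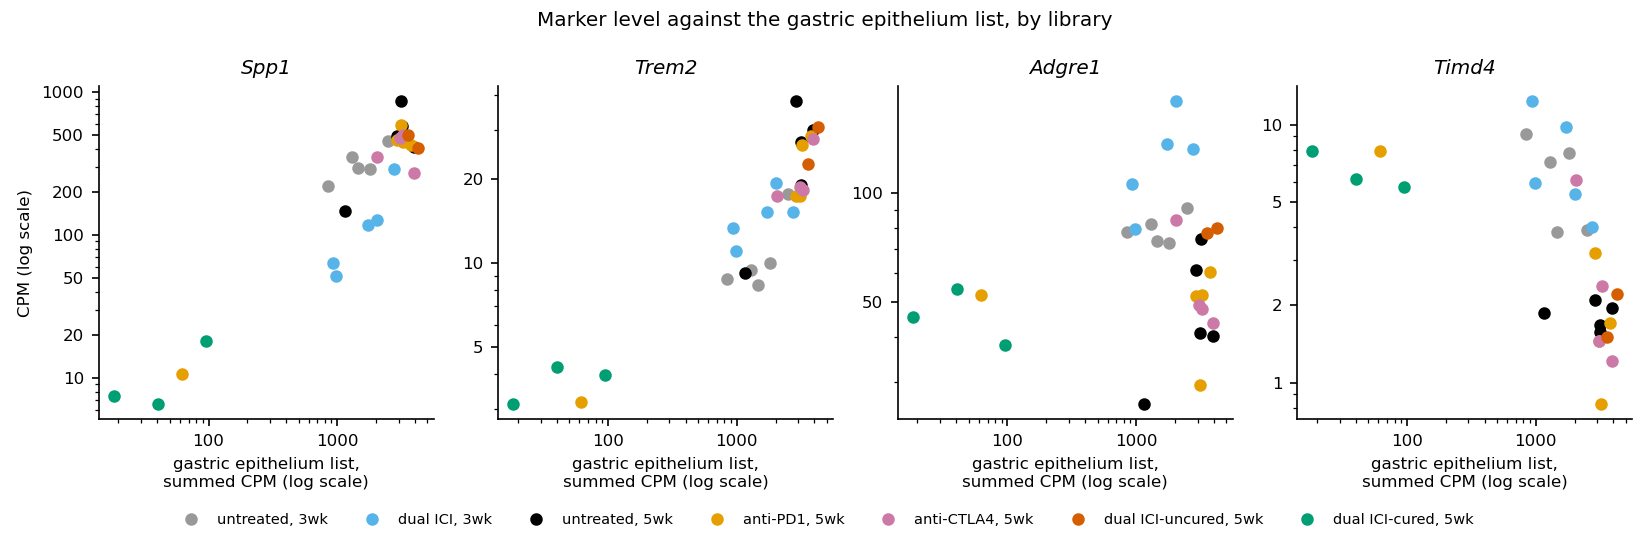
CPM (y axis, log scale) of Spp1, Trem2, Adgre1 and Timd4 against the summed CPM of the gastric epithelium list (x axis, log scale), each point 1 of the 29 libraries. The 3 cured mice and library 5 of the anti-PD1 group lie below 100 CPM of epithelium with low Spp1 and Trem2, while their Adgre1 lies among the other mice at 5wk.

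Among the mice given the same dual ICI treatment, the uncured were compared with the cured. Of the markers, 7 were higher and 2 lower in uncured mice, where 11063 of 15796 genes (70%) were called, 36.9% higher and 33.1% lower. Spp1 was 498.6 and 406.1 CPM in the 2 uncured mice (log2 fold change 5.39, SE 0.37) and Trem2 was 22.5 and 30.6 CPM (2.80, SE 0.20). Both lay far above the cured values given above. Marco (2.27, SE 0.44, adjusted p = 0.00158), Cd68 (0.96, SE 0.14, adjusted p = 0.000371), Adgre1 (0.77, SE 0.15, adjusted p = 0.00154), Gpnmb (0.69, SE 0.12, adjusted p = 0.001) and Mrc1 (0.45, SE 0.13, adjusted p = 0.0123) were higher by less. Timd4 was 1.50 and 2.21 CPM (-1.83, SE 0.28, adjusted p = 0.000395) and Lyve1 28.7 and 33.6 CPM (-0.91, SE 0.20, adjusted p = 0.00322), below all cured mice. Cd163 did not pass (0.04, adjusted p = 0.88). The 2 groups did not overlap for 9 of the 10 markers, and between these mice 43.3% of all genes were higher and 37.9% lower without overlap.

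These calls rest on 2 uncured mice. On total counts the median of all genes was 0.84 (0.05 with TMM), 10127 genes were higher and 2314 lower (TMM, 5831 and 5232), Lyve1 was no longer called (-0.13, adjusted p = 0.568) and Cd163 was (0.82, adjusted p = 0.00834). With all 29 libraries in one fit, which shares the spread over all groups, 4 markers were called beside 57.3% of 16700 genes, and Adgre1 (adjusted p = 0.055), Mrc1 (0.227), Marco (0.0655), Gpnmb (0.153) and Lyve1 (0.0638) lost their call. Without uncured library 5, Mrc1 was 0.34 (adjusted p = 0.0944), in a fit with 1 uncured mouse that is assumed to vary like the cured mice.

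The list counts in uncured against cured mice are read beside the 36.9% of all genes that were higher and the 33.1% that were lower. Here 15 of 16 identity genes and 13 of 13 classical activation genes were higher and none was lower, led by Cx3cr1 (4.96) and Cd14 (2.73) and by Il1b (5.22) and Irg1 (4.93). Of the Trem2 programme 10 of 16 were higher, with Mmp12 at 4.16, and 3 were lower, Lpl (-2.50), Cd36 (-1.89) and Ctsd (-0.43). The scavenger list had 8 of 18 higher, with Il10 at 3.36, and 7 lower, and the peritoneal cavity list 4 of 12 higher (Naip1, 6.55, Gata6, 2.01) and 4 lower, both near those shares. Of the osteopontin receptor genes 3 were higher, Cd44 (3.02), Itgav (0.94) and Itgb1 (0.57). All 8 tested gastric epithelium genes were higher and all 18 skeletal muscle genes lower, and the uncured mice summed to 3540 and 4245 CPM for the first list. All 5 monocyte genes, all 5 neutrophil genes and 6 of 7 T cell genes were also higher, and all 8 adipocyte genes lower. Of 6 vascular endothelium genes 5 were lower, while 4 of 8 dendritic cell and 3 of 6 mesothelium genes were higher. Of 6 tested lymphatic endothelium genes 2 were higher and 1 lower, and of 7 fibroblast genes 3 were higher and 3 lower. The part of these cell types in the marker values was not tested.

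Uncured mice were then compared with untreated mice at 5wk, both of which still held tumor. No gene of 16156 passed (0%). At an unadjusted p under 0.05 there were 787 genes (4.87%), and 588 to 1310 when 1 untreated library was left out. DESeq2 called 17 genes and none of the markers. Adgre1 was the only marker without overlap, at 77.7 and 80.3 CPM in uncured against 74.8, 26.0, 40.9, 40.3 and 61.4 CPM in untreated mice (log2 fold change 0.69, SE 0.34, adjusted p = 0.735). A lack of overlap in the higher direction was seen for 9.19% of all genes. Spp1 (-0.15, SE 0.53), Trem2 (0.11, SE 0.44), Timd4 (0.02, SE 0.31) and Lyve1 (-0.13, SE 0.20) were not called, and the 5 others lay between -0.45 (Gpnmb) and 0.47 (Mrc1). No gene of any list passed, and all 16 identity genes lay above 0 (median 0.45). Of 7 T cell genes 6 had an unadjusted p under 0.05 and a higher level in uncured mice, and the T cell sum was 40.7 and 41.8 CPM in uncured against 14.2 to 25.6 CPM in untreated mice. The same held for 6 of 13 classical activation, 3 of 5 monocyte and 2 of 8 dendritic cell genes, while 3 of 6 mesothelium and 2 of 8 adipocyte genes were lower at that level. None of 18 skeletal muscle genes lay above 0 (median -1.09), and their sum was 47060 and 67480 CPM in uncured against 52600 to 272600 CPM in untreated mice. The part of these cell types in the marker values was not tested.

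The label-only comparison joined all 5 dual ICI mice at 5wk. No gene of 15588 passed (0%; 1071 genes, 6.87%, at an unadjusted p under 0.05, and 46 genes but no marker with DESeq2). Timd4 (1.36, SE 0.43, adjusted p = 0.634) and Gpnmb (-0.83, SE 0.36, adjusted p = 0.634) had the smallest unadjusted p among the markers. The log2 fold change of Spp1 was -1.43 with an SE of 1.16, since its 5 values ran from 6.55 to 498.6 CPM.

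A test of the interaction asked whether the dual ICI effect differed between uncured mice at 5wk and mice at 3wk. By the study's schedule the mice at 5wk had more antibody doses, and the uncured mice were grouped by outcome. Time, dosing and outcome therefore cannot be told apart in it. No gene of 16542 passed (0%; 1050 genes, 6.35%, at an unadjusted p under 0.05, and 1 gene but no marker with DESeq2). For Marco the difference of the 2 effects was -1.95 (SE 1.06, adjusted p = 0.707), for Spp1 1.17 (SE 0.71, adjusted p = 0.707) and for Adgre1 0.02 (SE 0.40, adjusted p = 0.992).

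Each antibody alone was compared with untreated mice at 5wk. For anti-PD1 no gene of 15640 passed (0%), and none with DESeq2. At an unadjusted p under 0.05 there were 205 genes (1.31%). That count was 314 without library 5 of the anti-PD1 mice, and 125 to 434 when any 1 library was left out. Cd163 (log2 fold change 0.61, SE 0.23) and Lyve1 (0.48, SE 0.19) were higher at that level, against 0.633% of all genes, both with an adjusted p of 1. Cd163 was 56.7, 135.9, 103.4, 90.3 and 91.4 CPM in anti-PD1 mice and overlapped the untreated mice through library 1. Without library 5 the log2 fold change of Cd163 was 0.62 and that of Lyve1 0.60, both with an adjusted p of 0.995.

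In that library 5, Spp1 was 10.7 CPM against 583.3, 445.0, 422.9 and 463.6 CPM in the other anti-PD1 mice. Trem2 was 3.17 CPM against 17.4 to 28.5 CPM, and Timd4 was 7.90 CPM against 0.825 to 3.17 CPM. All 3 values were close to those of the dual ICI-cured mice. Gpnmb at 54.8 CPM and Marco at 3.64 CPM lay above the cured mice, which had 24.7, 31.2 and 29.8 CPM of Gpnmb and 0.361, 0.394 and 0.976 CPM of Marco. Cd68 (31.2 CPM) also lay above them, and Lyve1 lay below them, at 29.2 CPM against 45.0 to 61.3 CPM in the other 4 anti-PD1 mice. Without the library, Timd4 went from 0.70 to -0.05, Spp1 from -0.37 to -0.06 and Trem2 from -0.40 to -0.14 on the log2 scale, none of them called. Cd68 went from 0.04 to 0.09, Adgre1 from 0.02 to -0.01 and Mrc1 from 0.19 to 0.27. Marco went from -0.69 to -0.99, and Gpnmb was at -0.19 both times. These were not called either.

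For anti-CTLA4 no gene of 15781 passed (0%), and none with DESeq2. At an unadjusted p under 0.05 there were 128 genes (0.811%), and 91 to 337 when 1 library was left out. Cd163 (0.49, SE 0.17) and Lyve1 (0.57, SE 0.15) were higher with an unadjusted p under 0.05, against 0.291% of all genes, both with an adjusted p of 0.9998. Both monotherapies were compared with the same 5 untreated mice. Lyve1 was 56.9, 51.9, 39.9 and 54.9 CPM in anti-CTLA4 mice, and library 3 lay within the untreated range. Spp1 (-0.33), Trem2 (-0.27), Timd4 (0.59), Marco (-0.59) and the rest were not called. No gene of any macrophage list passed in either comparison.

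Across the 29 libraries the markers formed sets that varied together. The log2 CPM of Adgre1 had a Pearson r of 0.928 with Mrc1, 0.863 with Cd68 and 0.736 with Cd163, and 0.866, 0.775 and 0.592 after the group means were taken off. Spp1 had 0.833 with Trem2 (0.776 after the group means) but 0.0383 with Adgre1. Timd4 was negative with Trem2 (-0.66), Spp1 (-0.617) and Gpnmb (-0.608), and -0.575, -0.616 and -0.253 after the group means. Gpnmb had 0.704 with Marco, and no other marker passed 0.377 with Lyve1. The libraries share their tissue mixture, so these values are descriptions.

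The genes most like each marker over the 29 libraries were found among 16700 genes. For Adgre1 they were Ptprc (r = 0.967), Myo1f and Lcp2, for Cd68 Laptm5 (0.944), Nckap1l and Igsf6, for Mrc1 Pik3cg (0.932), Adgre1 and March1, and for Cd163 F13a1 (0.831), Mrc1 and Nfam1. For Spp1 they were Fxyd3 (0.982, and 0.966 after the group means), Cela1 (0.978) and Foxq1 (0.976), and for Trem2 Stxbp2 (0.97), Coro1b (0.966) and Cyp4f16 (0.961). None of these 6 is in the macrophage lists or the gastric epithelium list. The latter holds only 12 genes, so absence from it does not tell which cells express them, and this was not tested. Timd4 was most like Pi15 (0.923), Bank1 (0.913) and Atp6ap1 (0.906) and Gpnmb most like Fabp6 (0.872), Etnppl and Spata2l. Marco (Saa3, 0.747, then E230013L22Rik and Otulin) and Lyve1 (Alox5, 0.644, then C130026L21Rik and Slc25a22) had no gene as close as those of the other markers.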

How the data were processed

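The authors deposited raw counts by gene symbol, made from 150 bp paired-end reads aligned to mm10. The submitters' processing notes name STAR 2.7.0f and featureCounts 1.6.4, while the study's methods name HTSeq for counting. Annotation and strand setting are not given in the sources used here, so counts of Spp1 and Mrc1, which overlap Gm42793 and Mir511 on the same strand, may share reads.

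Fold changes came from edgeR 4.0.16 (R 4.3.3), with TMM scaling, the low-count filter of filterByExpr, and two-sided quasi-likelihood tests (glmQLFit, glmQLFTest) fitted on the compared groups only. P-values were adjusted by Benjamini-Hochberg across every gene in a fit, with a threshold of 0.05. The scripts were tested on simulated data. CPM used TMM-scaled sizes over 29 libraries, and RPKM the longest coding transcript in GENCODE vM21 (GRCm38). Likeness was Pearson's r of log2(CPM + 0.5). Each library was taken as a separate mouse by its label number. Figures were drawn with matplotlib 3.10.9, from tables handled with pandas 2.3.3.

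The markers and gene lists were chosen with earlier results of these data known. Named list genes are the 2 called genes with the largest log2 fold change per list and comparison, or else the gene with the smallest p, and the most abundant gene of a cell type list. The level given for a most abundant gene is its mean over all 29 libraries. Of the genes that this rule names, 1 is left out and is not reported here. Where the text names more, they were chosen after their values were seen. Alternatives were DESeq2 1.42.0, scaling to the upper quartile, a test without the low-count filter or with a minimum of 10 counts in each library, omission of skeletal muscle genes, 1 fit of all 29 libraries, a replicate block, omission of each library and, added after seeing the data, total counts as library sizes.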

Additional observations from a re-analysis of the deposited data

Results flagged for a closer look

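Groups of 4 or 5 mice were screened for a library far from the others of its group by Dixon's criterion, for each of the 10 markers. Of 50 combinations of marker and group, 7 held such a library. The criterion's rate of about 1 in 20 assumes independent, normally distributed values. CPM was not logged here and the markers share libraries, so the 7 cannot be set against that rate. Spp1 in library 5 of the anti-PD1 group was low, at 10.7 CPM. Adgre1 was low in library 1 of the same group (29.5 CPM) and high in library 2 of the anti-CTLA4 group (84.4 CPM). Trem2 was high in library 4 of the untreated group at 3wk (17.6 CPM) and in library 1 of the anti-CTLA4 group (27.7 CPM). Gpnmb was high in library 5 of the untreated group at 5wk (129.8 CPM), and Lyve1 in library 2 of the dual ICI group at 3wk (119.6 CPM).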

How the results depend on the processing

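Fits with DESeq2 called 502 genes and 3 markers at 3wk (Adgre1, Spp1 and Marco), Marco in cured mice, 17 genes in uncured against untreated mice, 3168 genes in untreated mice from 3wk to 5wk, with Mrc1 (adjusted p = 0.0128) and Adgre1 (adjusted p = 0.0266) added, 46 genes for all dual ICI mice at 5wk and 1 for the interaction. On total counts, 15 genes were called at 3wk. In untreated mice over time, 778 genes were then higher and 511 lower of 15604 and 2 markers were called, where Trem2 (adjusted p = 0.0724) and Cd163 lost their call. All 29 libraries in one fit called 4 markers in uncured against cured mice, beside 5330 genes higher and 4246 lower of 16700, and added Marco in cured mice (adjusted p = 0.0292) and Mrc1 in untreated mice over time (adjusted p = 0.0303). Signs turned for small changes on total counts, with Lyve1 at 0.0469 in uncured against untreated mice, Mrc1 at -0.624 and Cd163 at -0.268 in cured mice, Cd68 at -0.00522 and Adgre1 at -0.0589 under anti-PD1, Mrc1 at -0.00245 for all dual ICI mice, and Cd68 at 0.0794 and Timd4 at 0.0144 in the interaction. With upper-quartile normalization Mrc1 in cured mice was -0.0319 and Adgre1 under anti-PD1 -0.000953, and with at least 10 counts in every library Mrc1 in cured mice was -0.045. The causes were not tested. Without skeletal muscle genes or without the filter, no marker changed its call or sign. Depth limits Marco most, at 2 to 305 counts per library.

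The replicate numbers did not pair the mice: the correlations of same-numbered libraries ran from -0.714 to 0.712, over 0.1 in 2 of 5 pairs at 3wk, 0 of 2 for uncured, 1 of 3 for cured, 2 of 5 for anti-PD1, 3 of 4 for anti-CTLA4 and 1 of 5 over time, where 2, 0, 1, 0, 2 and 1 libraries correlated best with their own number. With the replicate block, 209 genes and 1 marker (Spp1, adjusted p = 0.0148) were called at 3wk and 4016 genes in cured against untreated mice, where Gpnmb was not called (adjusted p = 0.0591), Marco was (adjusted p = 0.0489) and Adgre1 turned to 0.372. Trem2 turned to -0.285 in uncured mice, and under anti-CTLA4 Trem2 turned to 0.0268 and Gpnmb to 0.27. In untreated mice over time Mrc1 was called with the block (adjusted p = 0.0474). Uncured and cured mice share no number, so this comparison has no block. The numbers used are those of the library titles. For dual ICI mice at 3wk, most library names in the deposited counts carry a different number, so the block there rests on the titles.

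Where 1 uncured mouse was left out, the other was assumed to vary like the mice it was compared with. Leaving out 1 library gave 6 to 119 genes and 0 to 1 markers at 3wk, where the count was 6 to 52 without any untreated mouse or dual ICI library 3 or 5. It gave 4491 genes (without cured library 3; 4515 without library 4) to 9388 genes (without untreated library 2) and 3 to 7 markers in cured against untreated mice, 9668 to 10880 genes and 8 to 9 markers in uncured against cured mice, and 2 to 8 markers in untreated mice over time, with 654 to 854 genes without library 1, 2, 3 or 5 at 3wk, 1078 and 724 without library 4 and 5 at 5wk, and 4915 without library 2 at 5wk. It gave 0 genes in the other 5 comparisons. Markers that were not called took both signs: at 3wk Timd4 (-0.0189 to 0.3996), Gpnmb (-0.0609 to 0.142) and Lyve1 (-0.146 to 0.499); in uncured against untreated mice Spp1 (-0.379 to 0.143), Trem2 (-0.146 to 0.324), Marco (-0.493 to 0.613) and Timd4 (-0.305 to 0.272); in cured mice Adgre1 (-0.223 to 0.125) and Mrc1 (-0.109 to 0.284); in uncured against cured mice Cd163 (-0.3296 to 0.332). Under anti-PD1 these were Cd68 (-0.134 to 0.262), Adgre1 (-0.137 to 0.223), Marco (-1.03 to 0.134), Timd4 (-0.0465 to 0.942) and Gpnmb (-0.388 to 0.242), and under anti-CTLA4 Adgre1 (-0.0696 to 0.398), Marco (-1.44 to 0.2295), Timd4 (-0.142 to 0.837) and Gpnmb (-0.478 to 0.373). For all dual ICI mice it was Cd68 (-0.277 to 0.184), and in the interaction Cd68 (-0.2499 to 0.187), Adgre1 (-0.144 to 0.2295), Mrc1 (-0.0801 to 0.343), Cd163 (-0.1601 to 0.481), Timd4 (-0.511 to 0.045) and Lyve1 (-0.6399 to 0.025).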
